A study of Mus musculus with 4 samples.

Results

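The genes described here are 10 genes of the BMP, ALK1 and endoglin pathway of blood vessels, measured in mouse yolk sac at embryonic day 9.5. They are the receptor genes Acvrl1 (which encodes ALK1), Eng (endoglin) and Bmpr2, the SMAD genes Smad1, Smad6 and Smad7, and the target genes Tmem100, Id1, Id2 and Id3. The 10 genes were selected on earlier results of the same arrays and the same contrast, so their differences between the groups are given as a description without a test. They are 10 of 19057 genes with a named probe and took in 20 of the 45281 probes of the array, found by gene symbol in the platform annotation. Of the 10 genes, 9 passed the filter on dim probes (detection p under 0.05 on at least 2 of 4 arrays) and were among the 10603 genes tested. Smad7 did not pass it.

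Total RNA of whole yolk sac was hybridised to Illumina bead arrays in 2 groups of 2 samples, all of strain C57BL/6. In the group labelled Flk1Cre;ETV2 CKO (conditional knockout), the Etv2 gene, which encodes an ETS transcription factor needed for endothelial and blood lineages, was to be deleted by Cre recombinase in cells that express FLK1, the VEGF receptor encoded by Kdr. The deletion is therefore limited to FLK1-expressing cells and their descendants, while the RNA came from all tissues of the yolk sac. The labels do not say whether the control yolk sacs carried Cre or loxP alleles, or whether the samples of a group came from separate embryos or litters. If they did not, the p-values below reflect only a technical spread among arrays.

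BMP9 and BMP10 are ligands that circulate in blood and bind ALK1 together with a type II receptor such as BMPR2, with endoglin as co-receptor on the endothelial surface. The activated receptors phosphorylate SMAD1 and its relatives, which enter the nucleus with SMAD4 and induce the ID genes and the feedback inhibitors SMAD6 and SMAD7. Tmem100 encodes a small transmembrane protein induced by ALK1 signalling in endothelium, and mice that lack Tmem100, Acvrl1 or Eng die in mid-gestation with failed remodelling of yolk sac and embryonic vessels.

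The targeted gene did not follow its label. Etv2 gave normalized log2 signals of 6.83 and 6.80 on the CKO-labelled arrays and 6.29 and 6.43 on the control arrays, from raw signals of 206 and 227 against 157 and 177. It was thus higher on the CKO-labelled arrays, by 0.46 ± 0.10 (log2, standard error of limma's fit, n = 2 against 2, limma adjusted p = 0.0199). The call ended without CKO replicate 1 (0.45), CKO replicate 2 (0.47) or control replicate 1 (0.39) and in the authors' values (0.13), with Etv2 higher in each. The sources used here do not tell if the probe targets the floxed segment. The arrays are therefore called CKO-labelled throughout, and every direction below rests on that label. Between 17934 and 18798 probes were above background on an array. Of the 10603 genes in the fit, limma called 1144 (10.8%) lower and 1527 (14.4%) higher in the CKO group at an adjusted p under 0.05, 25.2% in either direction, and the median difference was 0.02. The signals of the 2 groups did not overlap for 65.4% of the genes.

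Promoter sequence was used for 6 of the 10 genes. The 250 bases before the RefSeq gene start (GRCm38.p6) are shown for the 4 of them that held letters of a SMAD motif, 2 target genes and 2 receptor genes. Capitals mark the GC-rich SMAD motif (GGCGCC) or the SMAD box (CAGAC, written GTCTG where it lies on the other strand). The windows are chr4:136143572-136143821 on the + strand for Id3, chr12:25096093-25096342 on the - strand for Id2, chr2:32646345-32646594 on the + strand for Eng and chr1:59764029-59764278 on the + strand for Bmpr2.
Id3: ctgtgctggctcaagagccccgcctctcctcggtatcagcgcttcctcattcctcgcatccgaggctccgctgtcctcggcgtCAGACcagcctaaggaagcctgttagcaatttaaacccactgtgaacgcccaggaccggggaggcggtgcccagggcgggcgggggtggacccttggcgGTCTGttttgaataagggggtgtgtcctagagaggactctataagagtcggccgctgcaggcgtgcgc
Id2: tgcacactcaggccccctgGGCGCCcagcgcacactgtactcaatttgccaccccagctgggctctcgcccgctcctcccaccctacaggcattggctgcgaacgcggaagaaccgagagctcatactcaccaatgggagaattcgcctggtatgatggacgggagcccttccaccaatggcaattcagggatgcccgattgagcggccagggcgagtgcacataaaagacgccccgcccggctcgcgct
Eng: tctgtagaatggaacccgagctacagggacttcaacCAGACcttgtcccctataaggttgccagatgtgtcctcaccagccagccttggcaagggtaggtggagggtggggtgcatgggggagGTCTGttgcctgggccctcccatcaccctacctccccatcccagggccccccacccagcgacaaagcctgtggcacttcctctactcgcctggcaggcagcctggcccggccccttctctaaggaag
Bmpr2: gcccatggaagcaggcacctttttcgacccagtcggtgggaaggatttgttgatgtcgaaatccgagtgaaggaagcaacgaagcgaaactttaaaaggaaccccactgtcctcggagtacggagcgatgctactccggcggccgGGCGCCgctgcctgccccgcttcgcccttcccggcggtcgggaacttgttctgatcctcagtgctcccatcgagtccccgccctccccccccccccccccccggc
The SMAD box began 167 and 68 bases before the Id3 start and 214 and 127 bases before the Eng start. GGCGCC began 231 bases before the Id2 start and 105 bases before the Bmpr2 start. Searched on both strands of 32851 windows of the same length, GGCGCC was present in 9.59% and CAGAC in 42.2%. The ETS motif CCGGAAGT, present in 2.88% of the windows, was in 0 of the 6. Smad1 and Smad6, the other 2 genes with a window, held none of these letters. A match describes the letters of a window and is no evidence of a bound site.

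Tmem100, on chromosome 11, was the gene of the 10 with the largest difference between the groups. Its signals were 5.48 and 5.60 on the CKO-labelled arrays and 7.25 and 7.11 on the control arrays. Both control arrays were far above both CKO-labelled arrays, with a gap of 1.51 between the nearest signals of the groups. The difference was -1.63 ± 0.10, or 3.10-fold lower, the 13th lowest of the 10603 genes. In raw signal the probe gave 139 and 155 on the CKO-labelled arrays and 223 and 230 on the control arrays, and it was above background on all 4 (detection p 0.0118 and 0.00427 on the CKO-labelled arrays). The CKO-labelled signals lay little above background, so the size of the difference moves with how background is treated. It was -0.77 without background correction and -0.44 in the authors' processed values, in which the probe read 218 and 221 against 303 and 292. A second Tmem100 probe was not above background on any array, with raw signals of 105 and 109 against 98.0 and 110.

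**Figure D1:**
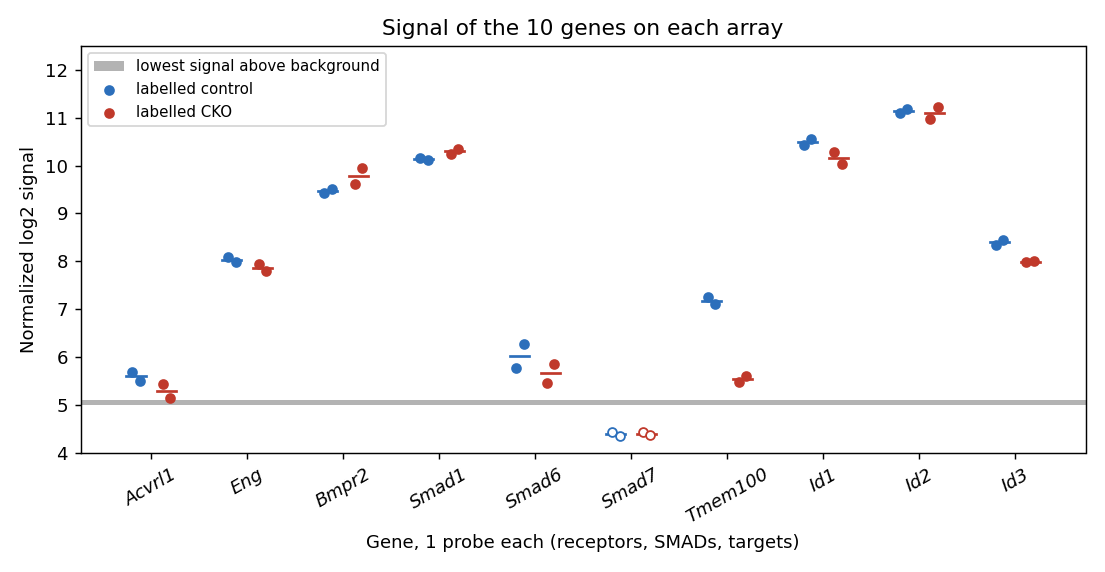
Normalized log2 signal (vertical axis) of the 10 genes on each of the 4 arrays, with 1 probe a gene, points for arrays and bars for group means. Open points mark Smad7, which was not above background, and the grey band is the lowest signal above background on the arrays. Tmem100 shows the widest gap between control and CKO-labelled arrays, 1.51, and the next largest difference of means is that of Id3, -0.40.

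The 3 tested genes whose 4 centred signals lay nearest to those of Tmem100 were Trib3, Tfrc and Dusp4. They lay at Euclidean distances of 0.122, 0.147 and 0.158 over the 4 arrays. Trib3 encodes a pseudokinase of the stress response, Tfrc the transferrin receptor of red cell precursors and Dusp4 a phosphatase of MAP kinases. Their differences were -1.59, -1.71 and -1.74, close to that of Tmem100. With 4 arrays in 2 groups, likeness over these arrays is mostly likeness of the group difference.

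The receptor genes differed less between the groups, and not all in one direction. Acvrl1, on chromosome 15, gave 5.44 and 5.15 on the CKO-labelled arrays and 5.69 and 5.50 on the control arrays. The groups did not overlap, by a gap of 0.07, and the difference was -0.30 ± 0.13. Its raw signals of 137 and 139 against 133 and 137 were not lower on the CKO-labelled arrays. The normalized difference was -0.10 without background correction and -0.05 in the authors' processed values.

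Eng, the co-receptor gene on chromosome 2, gave 7.94 and 7.80 in the CKO-labelled group and 8.08 and 7.98 in controls. Its groups did not overlap either, by a gap of 0.05, with a difference of -0.17 ± 0.10. The raw signals of Eng, 331 and 351 against 331 and 345, were not lower on the CKO-labelled arrays. Bmpr2, the type II receptor gene on chromosome 1, went the other way, with 9.63 and 9.95 against 9.43 and 9.52. Both CKO-labelled arrays were above both control arrays, and the difference was 0.31 ± 0.13. It fell to 0.15 without CKO replicate 2 and rose to 0.48 without CKO replicate 1. The other 3 Bmpr2 probes were not above background on any array.

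Among the SMAD genes, Smad1, which encodes the signal-carrying SMAD of this pathway, was slightly higher on the CKO-labelled arrays. Its brightest probe gave 10.25 and 10.35 against 10.15 and 10.13, a difference of 0.16 ± 0.09 without overlap. Smad1 lies on chromosome 8 and has 5 probes that passed the filter. The second bright probe differed by 0.13, and 3 dim probes, each above background on 3 arrays, differed by 0.00, -0.10 and 0.27. Smad6, the inhibitory SMAD on chromosome 9, gave 5.46 and 5.86 on the CKO-labelled arrays and 5.76 and 6.27 on the control arrays. Within each group its 2 arrays stood apart and the groups overlapped, with a difference of -0.36 ± 0.20. With 1 array left out, the difference ranged from -0.61 without control replicate 1 to -0.11 without control replicate 2. It was -0.14 without background correction and -0.07 in the authors' processed values. The mean raw signals of Smad6 were 151.8 on the CKO-labelled arrays and 151.7 on the control arrays. Smad7, the other inhibitory SMAD, gave 4.43 and 4.38 against 4.43 and 4.36, not above background on any array, and no difference is given for it.

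The ID genes encode inhibitors of bHLH transcription factors and are direct targets of BMP signalling. Id3, on chromosome 4, gave 7.98 and 8.00 on the CKO-labelled arrays and 8.34 and 8.45 on the control arrays. Both CKO-labelled arrays were below both control arrays by at least 0.34, and the difference was -0.40 ± 0.10, or 1.32-fold lower. The raw signals of Id3, 339 and 389 against 378 and 443, overlapped, and its difference was -0.23 in the authors' processed values. Id1, on chromosome 2, gave 10.28 and 10.03 against 10.43 and 10.55. It too was lower on both CKO-labelled arrays, with a smaller gap of 0.15 and a difference of -0.34 ± 0.12. Id2, on chromosome 12, gave 10.97 and 11.23 against 11.11 and 11.18 by its brightest probe, and here the groups overlapped, with a difference of -0.04 ± 0.12.

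The 3 Id2 probes did not move together. The second gave 8.56 and 8.78 in the CKO-labelled group, below 9.03 and 9.07 in controls without overlap, with a difference of -0.38. The third gave 7.92 and 8.39 against 7.86 and 8.07, a difference of 0.19 with overlap. All 3 were above background on all 4 arrays, so the direction of Id2 depended on the probe.

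**Figure D2:**
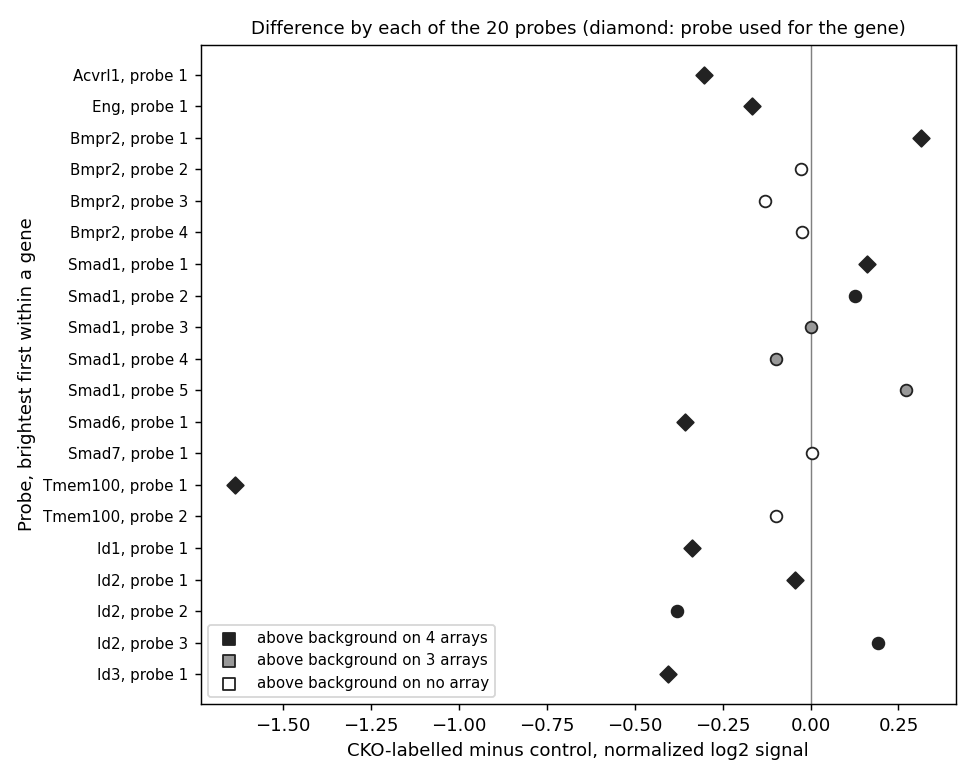
Difference in normalized log2 signal between CKO-labelled and control arrays (horizontal axis) for each of the 20 probes, ordered by gene. Diamonds are the probes used for the gene and fill shows on how many arrays a probe was above background. The Tmem100 probe that was above background stands at -1.63, and the 3 Id2 probes spread from -0.38 to 0.19.

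Of the 9 measured genes, 7 differences were below 0 and 2 above it, with a median of -0.30 against 0.02 over all genes tested. By the call of the fit across all genes, 2 of the 9 were lower (Tmem100 and Id3), against 10.8% of all genes, and 0 were higher, against 14.4%. The groups did not overlap for 7 of the 9, 5 lower and 2 higher, against 65.4% of all genes. Since the contrast chose the genes, nothing is read from these counts. The call of Id3 ended under median scaling, where its difference was -0.32, and without any one of the 4 arrays (-0.46 to -0.35), which left 1 call, Tmem100. Other settings added calls. Id1 was called lower without background correction, in the authors' values and with an offset of 50, Bmpr2 higher without background correction and with an offset of 50, and Smad6 lower with the replicate block.

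**Figure D3:**
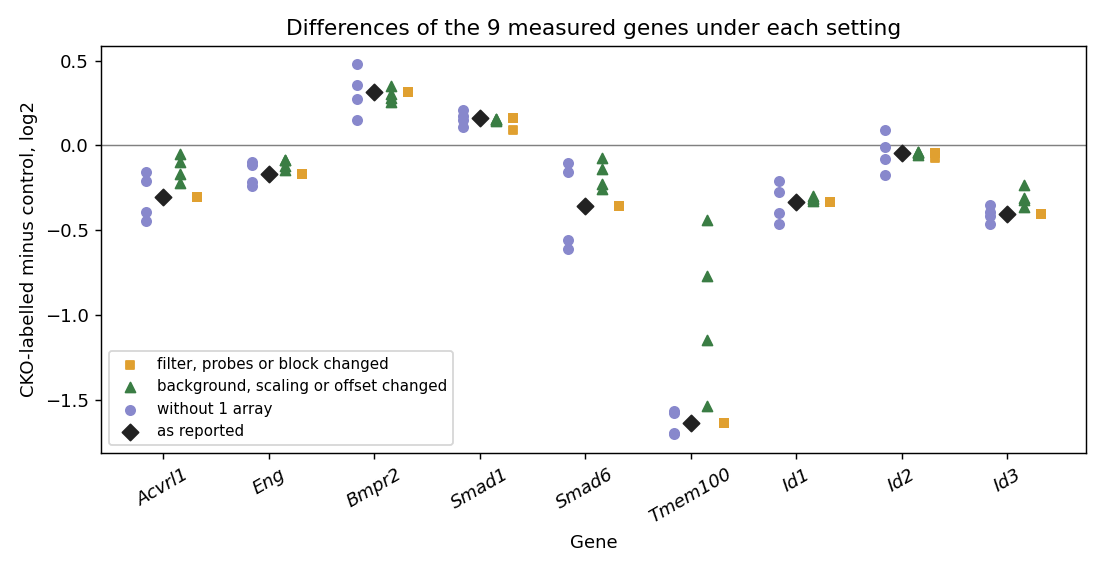
Difference in log2 signal between CKO-labelled and control arrays (vertical axis) of the 9 measured genes as reported (diamonds) and under 13 other settings, by kind of change. The difference of Tmem100 ranged from -1.70 to -0.44, always below 0, and that of Id2 from -0.18 to 0.09.

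Whole yolk sac holds many cell types, and fewer cells of a type cannot be told apart from less RNA per cell. The summed normalized signal of 17 tested endothelial markers was 11904 to 11927 on the CKO-labelled arrays and 12300 to 12359 on the control arrays, a ratio of 0.966. Of these 17 markers 5 were lower, 2 higher and 10 had no call, and their differences ran from -0.70 for Plvap to 0.80 for Robo4. Tmem100 lay below that whole range, and the other 8 measured genes lay within it. The contrast chose these genes and Tmem100 was dim on the CKO-labelled arrays, so nothing is read from these positions. Kdr, a defining endothelial marker and the gene of FLK1, was not above background by either probe. Arterial markers were split, 3 lower and 3 higher of 8, with summed signals of 4042 to 4608 against 4035 to 4269. Gja4 and Gja5, gap junction genes of arterial endothelium, were lower, at -2.18 and -2.67 (limma adjusted p = 0.000819 and 0.000206). Unc5b was also lower, at -0.40 (limma adjusted p = 0.0488). Higher were Sox17 (0.79), Nrp1 (0.57) and Cxcr4, and Nrp1 was the largest part of each summed signal. Cxcr4 passed the filter only through the CKO-labelled arrays and could only enter as higher.

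Markers of other cell types moved in both directions. Erythroid markers were lower (7 of 11 lower, 0 higher), with a summed signal ratio of 0.939 (98441 to 98652 against 104848 to 104978). That sum is mostly the signal of 4 globin genes near the top of the scale (14.31 to 14.53), which had no call, and the other 7 differed by -1.19 to -0.51. Mesothelial and mesenchymal markers were higher (8 of 12 higher, 0 lower), with a ratio of 1.28. Higher still were parietal endoderm (9 of 10 higher, ratio 1.73), cardiac muscle (7 of 8 higher, ratio 2.18) and trophoblast markers (3 of 5 higher and 1 lower, ratio 1.75). Myl2, Myl7 and Nppa among the cardiac markers, Prl8a2 among the trophoblast and Lyz2 among the macrophage markers passed the filter only through the CKO-labelled arrays. The trophoblast ratio came mostly from Prl2c2, which differed by 2.91. Visceral endoderm markers stood at 1.01 (3 of 14 higher, 0 lower) and macrophage markers at 0.797 (1 of 5 lower, 2 higher). The lower macrophage marker was Fcgr3 (-1.73), while Csf1r was higher (1.13) and the median of that list was 0.09. Also not above background by any probe were Ecscr and Clec14a (endothelium), Aif1 and Ptprc (macrophage), Postn (mesenchyme), Lamb3 (parietal endoderm), Tpbpa (trophoblast), and Myh7 and Nkx2-5 (cardiac muscle). The part of these shifts in the differences of the 10 genes was not tested. Bmpr2, Smad1 and the ID genes are also expressed outside endothelium.

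Other genes of the pathway were taken whole from 11 lists of 138 genes in all. Of 84 tested, 28 were higher, 11 lower and 45 had no call. Of the 28, Fst, Bmper, Cxcr4 and Smurf1 passed the filter only through the CKO-labelled arrays. The shares called over all genes were 14.4% higher and 10.8% lower. The lists were chosen with earlier results of these data known, so nothing is read from these counts. Without any one of the 4 arrays, 14 to 17 were higher and 5 to 7 lower, and 17 of the 39 calls held in all 4 of these fits. The values below are log2 differences with standard errors and limma adjusted p-values.

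The ligands of ALK1 gave no signal above background. This held on all 4 arrays for the single Gdf2 probe (BMP9) and both Bmp10 probes. Of 5 tested BMP and GDF ligand genes, 2 were higher, 1 lower and 2 had no call. Bmp4, which induces ventral and extraembryonic mesoderm, was higher by 0.55 ± 0.09 (adjusted p = 0.00903). A dim second Bmp4 probe differed by -0.29, and the call ended with the mean of both probes (0.13). Gdf1, a Nodal-related ligand of left-right patterning, was higher by 0.65 ± 0.10 (adjusted p = 0.0076). Bmp7 fell by 0.48 ± 0.11 (adjusted p = 0.0262), a call that ended without CKO replicate 2, control replicate 1 or control replicate 2 (-0.53 to -0.37).

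Of 22 extracellular antagonists and modulators of BMPs, 8 were tested, of which 6 were higher and 1 lower. Fst and Bmper, among the 6, passed the filter only through the CKO-labelled arrays and could only enter as higher. The calls of Fstl1 (0.33 to 0.46) and Bmp1 (0.27 to 0.45) ended without any one array, and that of Twsg1 without CKO replicate 2, control replicate 1 or control replicate 2. Fst encodes follistatin, which binds activins and some BMPs, and its signals were 7.39 and 7.63 on the CKO-labelled arrays and 4.71 and 5.09 on the control arrays. The controls were not above background, so Fst was at least 5.35-fold higher (adjusted p = 0.000448). Bmper, a secreted BMP-binding protein, gave 7.11 and 6.92 against 4.86 and 4.83, also not above background in controls, and was at least 3.79-fold higher (adjusted p = 0.000258). Crim1, a membrane protein with BMP-binding repeats, was higher by 0.77 (adjusted p = 0.00611), a call that ended in the authors' processed values (0.13). Kcp, an enhancer of BMP signalling, fell by 0.51 (adjusted p = 0.0232), a call that ended without CKO replicate 2 or control replicate 1 (-0.39 and -0.46) and in the authors' values (-0.10).

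Of the other 9 type I and type II receptor genes tested, 2 were higher and 7 had no call. They were Tgfbr2, the TGF-beta type II receptor, higher by 0.44 (adjusted p = 0.0176), and the activin receptor Acvr2b, higher by 0.42 (adjusted p = 0.0227). Both calls ended without any one of the 4 arrays, with differences of 0.42 to 0.47 for Tgfbr2 and 0.38 to 0.46 for Acvr2b, and that of Tgfbr2 also ended with the mean of its probes (0.38). Tgfbr3 (betaglycan), the co-receptor most like endoglin, was higher by 0.78 (adjusted p = 0.00436), and its dim second probe differed by -0.01. The difference of Eng was negative but small (-0.17 ± 0.10), and its raw signals were not lower on the CKO-labelled arrays.

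Of the other SMAD genes, Smad3, which carries TGF-beta and activin signals, was higher by 0.65 (adjusted p = 0.00542) and its second probe differed by 0.46. Smad5, a relative of Smad1, was higher by 0.38 by its bright probe (adjusted p = 0.0322). The dim Smad5 probe went the other way, with 5.50 and 5.83 against 6.33 and 6.16, so that the mean of both probes was -0.10, and the call also ended without any one of the 4 arrays (0.33 to 0.43). Smad4 was not analysed here.

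Of 24 intracellular SMAD regulators tested, 5 were higher, 4 lower and 15 had no call, with a median of 0.07. Skil (SnoN), a SMAD co-repressor, fell by 0.91 (adjusted p = 0.00219), and its second bright probe differed by -0.68. Smurf1, a ubiquitin ligase for SMADs, was at least 1.49-fold higher with controls not above background (adjusted p = 0.00979), a call that ended in the authors' values (0.09). The phosphatase gene Ctdsp1 was higher by 0.53 (adjusted p = 0.0167), and the deubiquitinase gene Usp15 fell by 0.43 (adjusted p = 0.0183). The Ctdsp1 call ended without CKO replicate 1, CKO replicate 2 or control replicate 2 (0.43 to 0.57) and the Usp15 call without any one array (-0.46 to -0.41). The mean of a gene's probes ended both calls as well, and the Usp15 call also ended under median scaling and in the authors' values (-0.12).

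Genes reported as induced by BMP9, BMP10 or ALK1 in endothelium, other than Tmem100 and the ID genes described above, were split. All 16 listed genes had a probe, but only 8 passed the filter and were tested. Of these 8, 1 was higher, 1 lower and 6 had no call, with a median of 0.00. Bmper, given above, was the higher one, and it passed the filter only through the CKO-labelled arrays. Edn1 (endothelin) fell by 0.49 ± 0.11 (adjusted p = 0.0207), with 5.38 and 5.59 against 5.96 and 5.99, while its raw signals were 136 and 154 against 143 and 154. Its call ended without background correction, under median scaling, in the authors' values (-0.09), and without CKO replicate 1, control replicate 1 or control replicate 2 (-0.51 to -0.39). Hey1, a Notch and BMP9 target, gave 7.37 and 7.39 against 7.40 and 7.36, a difference of -0.00 ± 0.09 with overlapping groups.

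Of 4 genes reported as repressed by ALK1 signalling, 3 were tested and had higher calls, and Cxcr4 passed the filter only through the CKO-labelled arrays. Esm1, a secreted proteoglycan of sprouting endothelium, gave 9.85 and 10.01 on the CKO-labelled arrays and 8.31 and 8.42 on the control arrays. It was higher by 1.56 ± 0.10 (adjusted p = 0.000594), with the groups far apart. Cxcr4, a chemokine receptor, was at least 2.64-fold higher, not above background in controls (adjusted p = 0.000575). Angpt2 was higher by 0.32 (adjusted p = 0.0428), but its dim probe differed by -0.17 and the call ended with the mean of both probes (0.08) and without any one array (0.32 to 0.33). Esm1 kept its call in all 13 alternatives and Cxcr4 in each of them that gave it a value. All of these genes also respond to other signals, and their link to the differences of the receptor genes was not tested.

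**Figure D4:**
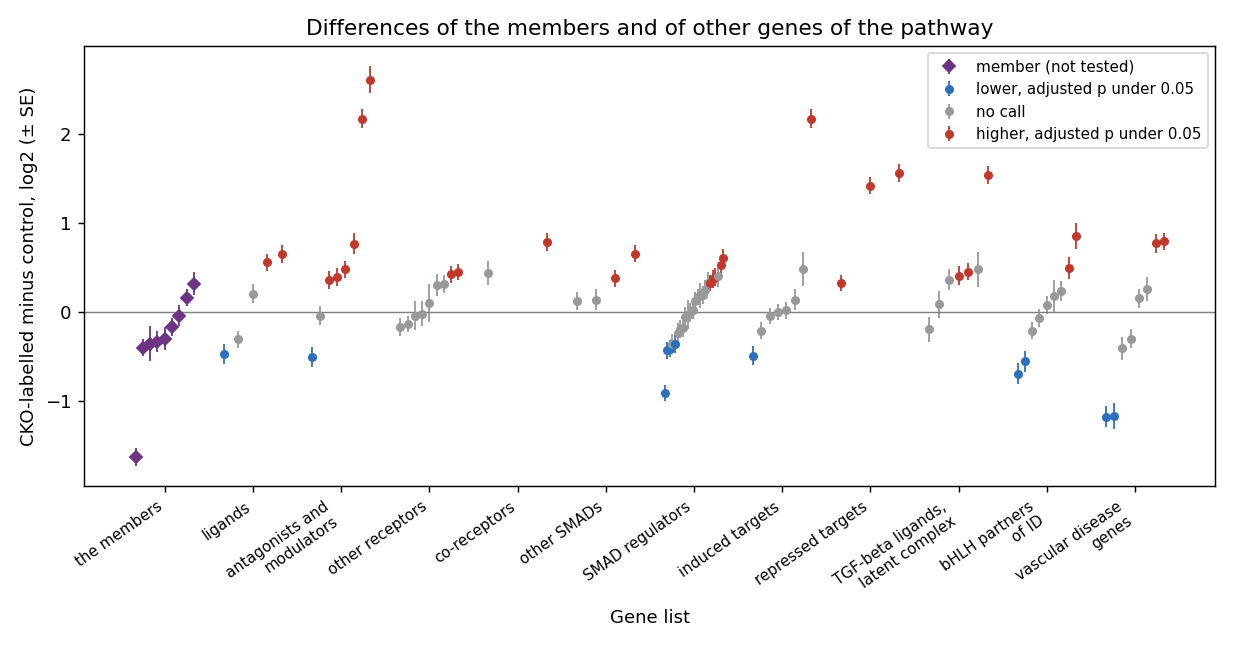
Difference in log2 signal between CKO-labelled and control arrays (vertical axis, bars are standard errors) for the 9 measured members and the tested genes of 11 pathway lists, each point a gene. The last list holds the other genes of hereditary vascular disease, and Fst, Bmper, Cxcr4 and Smurf1 are drawn at fitted values although their controls were not above background. These genes passed the filter only through the CKO-labelled arrays and could only lie above 0. Bmper is drawn among both the antagonists and the induced targets. Tmem100 is the lowest point at -1.63, and Kcp, from the list of antagonists, lies at -0.51.

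Of 7 genes of TGF-beta ligands and their latent complex, 3 were higher and 4 had no call. Tgfbi, a matrix protein induced by TGF-beta, was higher by 1.54 (adjusted p = 0.000511) by a bright probe and by 1.29 by a second. Ltbp1 was higher by 0.45 (adjusted p = 0.0193) and Tgfb2 by 0.41 (adjusted p = 0.0318), and both calls ended without any one array (0.40 to 0.50 and 0.33 to 0.49). The Ltbp1 call also ended with the mean of its probes (0.24). Among 9 bHLH factors, the class that ID proteins act on, 2 were lower and 2 higher. The blood and endothelial factors Tal1 (-0.70, adjusted p = 0.00934) and Lyl1 (-0.56, adjusted p = 0.0206) were lower. The mesodermal factors Hand2 (0.85, adjusted p = 0.0107) and Hand1 (0.49, adjusted p = 0.0286) were higher, as were the mesenchymal markers, a list that holds both. The Lyl1 call ended without CKO replicate 2 or control replicate 1 (-0.43 and -0.49), the Hand2 call without CKO replicate 1 (0.73), and the Hand1 call without CKO replicate 1, control replicate 1 or control replicate 2 (0.35 to 0.49) and in the authors' values (0.17).

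Acvrl1, Eng and Bmpr2 are genes in which human mutations cause hereditary haemorrhagic telangiectasia or pulmonary hypertension. Of 8 other genes tied to these diseases or to closely related lesions, 2 were lower, 2 higher and 4 had no call, with a median of -0.08. The water channel gene Aqp1 fell by 1.18 (adjusted p = 0.00216) and the flow-induced factor Klf2 fell by 1.17 ± 0.15 (adjusted p = 0.0039). Aqp1 is also abundant in red cells, of whose 11 tested markers 7 were lower and 4 had no call. A link between these markers and the difference of Aqp1 was not tested. The endothelial factor Sox17 was higher by 0.79 (adjusted p = 0.00331) and the mesodermal factor Tbx4 by 0.77 (adjusted p = 0.00509). These 4 calls held without any one of the 4 arrays.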

How the data were processed

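For each of the 4 arrays the authors deposited the raw intensity of every probe and, per the file headers, its detection p-value. Their processed intensity, linear and with an array median of 201.4, was used as an alternative only. The submitters' processing notes name lumi 2.15.1 without saying what it did, and the remaining steps were not given in the sources used here. Raw minima of 83.9 to 92.7 show that no background had been subtracted.

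Intensity was background-corrected from the detection p-values, offset by 16, quantile-normalized and put on the log2 scale with neqc of limma 3.58.1 in R 4.3.3. Probes with detection p under 0.05 on at least 2 arrays were kept and the brightest probe stood for its gene. Of 45281 probes, 34885 had 1 gene symbol, 18 several and 10378 none. A 2-sided limma test (lmFit, eBayes) compared the groups, p-values were adjusted over all 10603 genes by Benjamini and Hochberg with 0.05 as threshold, and the fit was checked on simulated data. The test had 6.54 degrees of freedom and a median standard error of 0.105. The number of arrays limits the precision: with 2 samples a group, an exact permutation p is at least 0.333. A fold written as "at least" divides the brighter group's mean by that of the dim group, with dim arrays raised to their lowest signal above background where the probe was below that.

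The members and the gene lists were chosen with earlier results of these data known. Genes named beside the 10 members were Etv2, up to 4 genes of largest difference past the threshold in each pathway list, Gdf2, Bmp10, Bmp4, Smad4 and Smad5, and the 3 genes nearest to Tmem100. Hey1, Kdr, Plvap, Robo4, Gja4, Gja5, Unc5b, Nrp1, Fcgr3, Csf1r, Prl2c2, Twsg1, Fstl1, Bmp1 and markers tied to the background or filter were added after their values were seen. Replicate numbers in the labels were not used to pair the samples in the reported fit. Deviations of same-numbered samples correlated at 0.0665 across genes, which shows no strong shared deviation but cannot exclude a pairing. Alternatives changed the background correction, scaling, offset, filter, choice of probes and the replicate block, and left out each array. Promoters came from a RefSeq table of GRCm38.p6, matched by symbol for 6 genes.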

Additional observations from a re-analysis of the deposited data

How the results depend on the processing

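The difference of Tmem100 kept its sign in all 13 alternatives. It was -0.77 without background correction, -1.54 with median scaling, -0.44 in the authors' processed values and -1.15 with an offset of 50, and -1.70 to -1.57 without 1 array. A larger offset or uncorrected background pulls differences of dim probes towards 0 by construction. The signs of Acvrl1, Eng, Bmpr2, Smad1, Smad6, Id1 and Id3 also held in all 13, and that of Id2 in 12. Over all genes, 649 were lower with median scaling, where 70.3% of the calls were higher against 57.2% as reported, and the cause was not tested. Fitting every probe by itself gave 1793 lower probes, a count of probes and not of genes. Without 1 array, 545 to 671 genes were lower and 751 to 1013 higher, with fewer samples and the lone sample of a group assumed to vary like the other group. Of the other pathway genes, 7 were lower with median scaling, and without 1 array 5 to 7 were lower and 14 to 17 higher. With the replicate block, 1164 genes were lower and 1561 higher, and Smad6 joined Tmem100 and Id3 among the 3 members called lower. Of 412 values of 32 named genes under the alternatives, 344 kept direction and call, 67 lost the call and 1 reversed, that of Smad5 at -0.10 with the mean of a gene's probes. Signal over background limits Tmem100, Acvrl1 and Smad6, the dim members, most, and Smad7 gave no value.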
